A study of Mus musculus with 6 samples.

Results

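The matrix proteases, their inhibitors and the collagen cross-linking enzymes of the mouse ovary were examined as a set of 51 genes, out of 45679 genes with a symbol in the files. The set was drawn by gene name and holds all 23 matrix metalloproteinase (MMP) genes, 19 ADAMTS genes, 4 TIMP genes and 5 genes of the lysyl oxidase (LOX) family. Whole ovaries of wild-type BDF1 mice, a hybrid laboratory strain, were profiled by mRNA sequencing. The labels give 3 groups of 2 libraries: mice aged 8 weeks given PBS (young PBS), mice aged 65 weeks given PBS (old PBS), and mice aged 65 weeks given MIT-001 (old MIT-001). MIT-001 is a small molecule described as an antioxidant that acts at mitochondria. It was given into the abdomen at 0.5 mg/kg for 7 days, and all groups carry the same wild-type genotype. How many animals stand behind a library, and whether any were pooled, is not stated in the labels. The p-values therefore cover only the spread from library to library, which may be technical.

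MMPs are zinc proteases that cut collagens, gelatin, proteoglycans and other matrix proteins, and most are made as inactive precursors. ADAMTS proteases are secreted relatives that trim procollagens or cut proteoglycans such as versican. TIMPs block MMPs by binding the active site, and TIMP3 also inhibits several ADAMTS proteases. Lysyl oxidases join collagen and elastin fibres into a stable network. In the ovary these genes are known for the opening of the follicle wall at ovulation and for the building and breakdown of the corpus luteum, the hormone gland left by an ovulated follicle.

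Abundance is given in TPM, a transcript abundance scaled for gene length and library size, and paired values are those of replicate 1 and replicate 2. Depth was 6.34 to 7.14 gigabases of aligned reads per library, and 14346 to 16338 genes reached a TPM of 1. The age labels were checked against cell markers, and between young PBS and old PBS the values went against them. Summed TPM of 12 oocyte markers was 406 and 48.4 in young PBS, 632 and 658 in old PBS, and 113 and 57.6 in old MIT-001. For 6 plasma cell markers the sums were 1745 and 278 in young PBS, 21.2 and 24 in old PBS, and 1220 and 126 in old MIT-001. The groups are therefore named as the libraries are labelled, and every direction below is a direction between labels. Granulosa cell markers, 10 genes, were present in all libraries at 2590 to 9229 TPM in sum. Because whole ovary was sequenced, fewer cells of a type and less RNA per cell cannot be told apart.

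The MMP genes ranged from abundant to absent without a clear break, and most of the lowest lie in a single genomic cluster. On chromosome 9, chr9:7272514-7699585 of mm10 (427 kb) holds 10 of the 23 MMP genes: Mmp13, Mmp12, Mmp1b, Mmp3, Mmp1a, Mmp10, Mmp8, Mmp27, Mmp20 and Mmp7. They include the interstitial collagenases, stromelysins, matrilysin and macrophage elastase. Only Mmp12 of the 10 reached a TPM of 1 in at least 2 libraries, the rule for testing a gene, and the largest value of any of them in any library was 4.6 TPM. By contrast, 10 of the 13 MMP genes elsewhere in the genome were tested. The promoter sequences of the cluster are shown here with some of the most abundant members because the motifs found in them differed. They are RefSeq reference sequence of GRCm38.p6, the assembly behind mm10, and 33 of the 51 members had an entry. Each line gives the 120 bases before the start site, 5′ to 3′ on the gene's strand. Capitals mark 3 motifs, searched on both strands. The AP-1 site, bound by Fos and Jun proteins, was spelled TGANTCA. The TATA box, which places the start of transcription in many regulated genes, was spelled TATAAA. The GC box, common in promoters of broadly expressed genes, was spelled GGGCGG. The cluster genes come first, from chr9:7464021-7464140 (Mmp1a, plus strand), chr9:7388027-7388146 (Mmp1b, minus), chr9:7445702-7445821 (Mmp3, plus), chr9:7502222-7502341 (Mmp10, plus), chr9:7272394-7272513 (Mmp13, plus), chr9:7691970-7692089 (the upstream start of Mmp7, plus) and chr9:7347254-7347373 (the downstream start of Mmp12, plus).
Mmp1a: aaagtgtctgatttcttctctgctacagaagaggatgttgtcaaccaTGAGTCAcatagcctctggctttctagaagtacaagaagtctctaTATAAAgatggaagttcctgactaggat
Mmp1b: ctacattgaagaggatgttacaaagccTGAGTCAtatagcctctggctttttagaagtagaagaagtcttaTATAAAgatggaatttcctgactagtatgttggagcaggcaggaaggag
Mmp3: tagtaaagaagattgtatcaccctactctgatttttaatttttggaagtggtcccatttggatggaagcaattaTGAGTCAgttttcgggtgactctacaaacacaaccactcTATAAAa
Mmp10: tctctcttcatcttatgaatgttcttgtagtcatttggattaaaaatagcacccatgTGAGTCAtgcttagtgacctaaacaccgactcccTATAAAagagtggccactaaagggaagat
Mmp13: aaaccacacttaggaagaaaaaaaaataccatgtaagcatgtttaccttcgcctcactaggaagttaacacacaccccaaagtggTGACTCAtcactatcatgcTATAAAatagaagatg
Mmp7: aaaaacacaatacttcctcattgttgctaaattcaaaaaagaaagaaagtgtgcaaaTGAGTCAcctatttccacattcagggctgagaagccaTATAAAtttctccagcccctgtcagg
Mmp12: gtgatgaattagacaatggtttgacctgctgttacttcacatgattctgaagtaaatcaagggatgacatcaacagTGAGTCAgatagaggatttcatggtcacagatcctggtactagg

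The contrast is with 2 abundant MMP genes and 2 abundant inhibitor genes, from chr10:75932503-75932622 (Mmp11, minus strand), chr14:54431478-54431597 (Mmp14, plus), chrX:20870046-20870165 (Timp1, plus) and chr11:118355412-118355531 (Timp2, minus).
Mmp11: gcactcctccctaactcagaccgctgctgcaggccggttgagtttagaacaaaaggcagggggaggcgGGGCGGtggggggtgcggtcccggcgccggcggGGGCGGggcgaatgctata
Mmp14: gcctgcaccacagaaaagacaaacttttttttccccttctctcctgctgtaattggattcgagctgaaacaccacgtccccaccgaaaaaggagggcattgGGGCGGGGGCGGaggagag
Timp1: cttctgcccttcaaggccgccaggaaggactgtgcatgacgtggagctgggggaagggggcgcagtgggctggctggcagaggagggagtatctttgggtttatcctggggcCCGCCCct
Timp2: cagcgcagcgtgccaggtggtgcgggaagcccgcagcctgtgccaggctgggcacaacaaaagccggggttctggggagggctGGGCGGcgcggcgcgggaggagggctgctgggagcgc

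The lines above were picked for their motifs, and other members went against that contrast. In the cluster, Mmp8 and Mmp27 held none of the 3 motifs. Mmp23, at up to 159 TPM, held no GC box, and the nearly silent Mmp24, Mmp25, Adamts18 and Adamts20 did hold it. An exception of each kind follows, from chr9:7558309-7558428 (Mmp8, plus) and chr2:155775222-155775341 (Mmp24, plus).
Mmp8: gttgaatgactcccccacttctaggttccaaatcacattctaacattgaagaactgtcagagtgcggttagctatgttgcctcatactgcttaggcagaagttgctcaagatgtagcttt
Mmp24: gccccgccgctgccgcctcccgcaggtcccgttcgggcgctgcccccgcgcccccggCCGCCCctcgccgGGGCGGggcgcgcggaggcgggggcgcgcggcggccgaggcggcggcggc

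Over the 250 bases before the start, the AP-1 letters were found in 8 of the 10 cluster genes and in 0 of the 23 other matched members. The members without a promoter entry all lie outside the cluster, and all but Adamts8 were tested. They include Mmp2, Mmp9, Mmp19, Adamts10, Lox, Loxl1, Loxl2 and Loxl3, so the counts outside the cluster leave out many expressed members. Among all 27025 genes with windows of the same length, 7.82% held them. The site began 63 bases before the start in Mmp10 and Mmp7, 46 in Mmp3, 44 in Mmp12, 35 in Mmp13, 73 in Mmp1a and 93 in Mmp1b, and Mmp20 held the form TGAATCA at 95. A TATA box was present in 7 of the 10 cluster genes and 2 of the 23 others, against 14.3% of all genes. The GC box showed the opposite arrangement, with 0 of 10 in the cluster and 17 of 23 outside it, against 35.4% of all genes. An Ets motif (AGGAAG), often described beside AP-1 in MMP promoters, was in 6 of 10 and 7 of 23, against 32.3% of all genes. A match describes letters in a window and is not a measured binding site. Genes with more than 1 start were counted as holding a motif when any of their windows did.

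Of the 51 members, 27 had a TPM of at least 1 in all 6 libraries and 16 had at least 10 TPM in all 6. The 35 tested members were 11 MMP, 15 ADAMTS, all 4 TIMP and all 5 LOX genes. The 16 untested members included 4 listed at 0 in every library, the fibroblast collagenases Mmp1a and Mmp1b, the enamel protease Mmp20, and Mmp21. The other 12 were above 0 somewhere: Mmp3, Mmp7, Mmp8, Mmp10, Mmp13, Mmp24, Mmp25, Mmp27, Adamts8, Adamts13, Adamts18 and Adamts20. Some of these stood out in a single library. Mmp8, neutrophil collagenase, was at 3.82 TPM in old MIT-001 replicate 2 and at no more than 0.101 TPM in the other 5. Mmp7, matrilysin, was at 3.17 TPM in young PBS replicate 2 and at no more than 0.202 TPM in the others. Mmp3, stromelysin 1, was at 1.5 TPM in young PBS replicate 1 and 0.752 TPM in old MIT-001 replicate 1, and at no more than 0.156 TPM in the other 4 libraries.

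Inhibitor transcripts led the set. Timp1, the most abundant member, had 221 and 1284 TPM in young PBS, 798 and 399 in old PBS, and 390 and 811 in old MIT-001. Those pairs overlapped between all groups, and Timp1 supplied 40.7% to 71.8% of all TIMP transcripts. Timp2, an inhibitor that also takes part in the activation of pro-MMP2 by MMP14, had 153 and 381 TPM in young PBS, 176 and 146 in old PBS, and 284 and 342 in old MIT-001. Both old MIT-001 libraries lay above both old PBS libraries, and the young PBS pair spanned all of them except old PBS replicate 2. Timp3, which binds the matrix and inhibits several ADAMTS proteases, had 155 and 115 TPM in young PBS, 156 and 118 in old PBS, and 280 and 222 in old MIT-001. Its old MIT-001 libraries were the 2 highest of the 6. Timp4 was much lower, with 9.26 and 6.7 TPM in young PBS, 3.19 and 3.58 in old PBS, and 4.26 and 10.8 in old MIT-001, and old PBS held its 2 lowest values.

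The abundant MMPs were Mmp2, Mmp14 and Mmp11. Mmp2, the gelatinase of fibroblasts, had 107 and 311 TPM in young PBS, 139 and 116 in old PBS, and 184 and 256 in old MIT-001. Mmp14, the membrane-bound protease that activates pro-MMP2 at the cell surface, had 139 and 196 TPM in young PBS, 146 and 127 in old PBS, and 192 and 232 in old MIT-001. Mmp11, stromelysin 3, had 110 and 110 TPM in young PBS, 91 and 79.7 in old PBS, and 157 and 148 in old MIT-001. For each of the 3, both old MIT-001 libraries lay above both old PBS libraries, and only Mmp11 separated all 3 groups. The scarcer Mmp9 and Mmp12 spread more widely. Mmp9, the gelatinase known from neutrophils, macrophages and osteoclasts, had 2.76 and 121 TPM in young PBS, 3.1 and 1.51 in old PBS, and 34.6 and 10.4 in old MIT-001. Mmp12, macrophage elastase, had 4.6 and 1.57 TPM in young PBS, 0.304 and 0.522 in old PBS, and 3.96 and 2.8 in old MIT-001. Old PBS held the 2 lowest values of Mmp12, while for Mmp9 young PBS replicate 1 fell between the 2 old PBS libraries. Mmp16, a membrane-type MMP, had 1.12 and 0.942 TPM in young PBS, 1.11 and 1.34 in old PBS, and 2.68 and 2.35 in old MIT-001, which held its 2 highest values. Mmp15, Mmp17, Mmp19, Mmp23 and Mmp28 ranged from 1.68 TPM (Mmp28) to 159 TPM (Mmp23) over the libraries.

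Among the ADAMTS genes, Adamts10, known for its tie to fibrillin microfibrils, had the highest mean, with 53.2 and 33.5 TPM in young PBS, 76.2 and 39.3 in old PBS, and 77 and 36.1 in old MIT-001. Its replicates differed more than its groups did. Adamts2, which removes the amino-terminal propeptide of fibrillar procollagens, had 23 and 33.2 TPM in young PBS, 41.7 and 51.2 in old PBS, and 33 and 32.4 in old MIT-001. Old PBS held its 2 highest values. Adamts1, the versican-cutting protease induced in follicles at ovulation, had 31.3 and 12.4 TPM in young PBS, 25.7 and 27.2 in old PBS, and 33.2 and 40.6 in old MIT-001, and old MIT-001 held its 2 highest values. Adamts12, which cuts cartilage oligomeric matrix protein, had 4.2 and 7.25 TPM in young PBS, 8.86 and 11.3 in old PBS, and 7.98 and 11.2 in old MIT-001, with young PBS lowest. Adamts5, an aggrecanase that also cuts versican, had 3.42 and 1.22 TPM in young PBS, 5.3 and 11.7 in old PBS, and 3.53 and 2.85 in old MIT-001. Adamts6, a close relative of Adamts10, had 1.52 and 0.41 TPM in young PBS, 3.11 and 5.72 in old PBS, and 2.13 and 1.38 in old MIT-001. Both genes had their 2 highest values in old PBS. Adamts16 had 1.18 and 0.123 TPM in young PBS, 0.265 and 0.53 in old PBS, and 2.63 and 1.64 in old MIT-001, which held its 2 highest values.

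Of the lysyl oxidases, Loxl2, which acts on collagen IV of basement membranes, was the most abundant, with 37.6 and 157 TPM in young PBS, 100 and 72.2 in old PBS, and 71.2 and 101 in old MIT-001. Loxl1, needed for elastic fibres, had 34.1 and 100 TPM in young PBS, 47.6 and 31.4 in old PBS, and 53.6 and 52.4 in old MIT-001. Loxl3 had 11 and 25 TPM in young PBS, 19.3 and 13.8 in old PBS, and 19.8 and 21.5 in old MIT-001. For Loxl2 and Loxl3 the young PBS pair bracketed all other libraries, and for Loxl1 all but old PBS replicate 2. Lox itself, the founding enzyme, had 7.6 and 3.81 TPM in young PBS, 9.31 and 14 in old PBS, and 14.6 and 18.1 in old MIT-001, an order in which the groups did not overlap. Loxl4 stayed low, with 0.601 and 0.477 TPM in young PBS, 0.484 and 0.689 in old PBS, and 1.22 and 1.05 in old MIT-001.

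**Figure D1:**
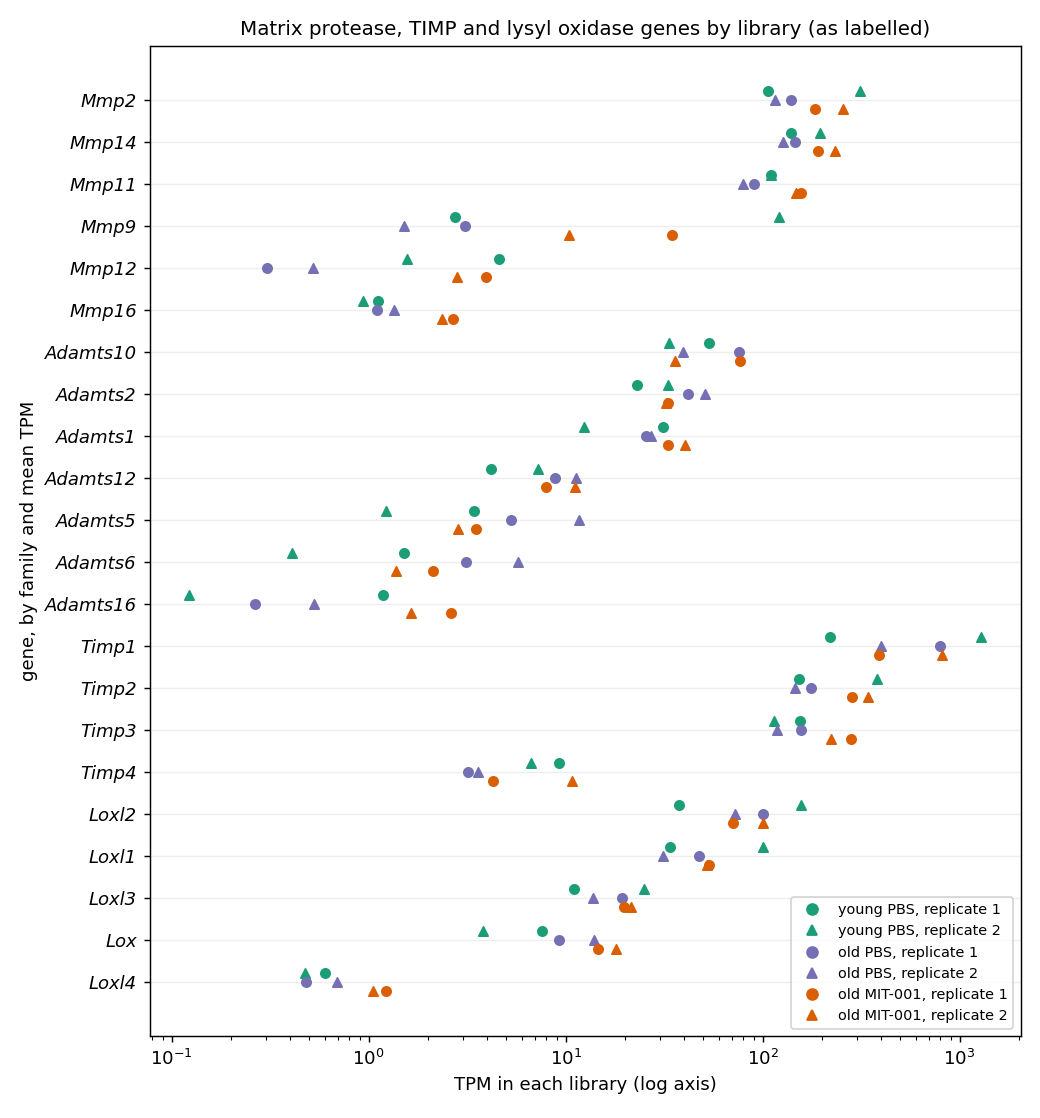
Abundance of the 22 named members in each of the 6 libraries, on a logarithmic TPM axis, with circles for replicate 1 and triangles for replicate 2 and genes ordered by family and mean. Old MIT-001 lies to the right of old PBS for Mmp11, Mmp14, Mmp16, Timp2 and Timp3, old PBS lies to the left for Mmp12, and the young PBS pair is wide for Mmp9, Timp1 and Loxl2.

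Between old PBS and young PBS, no member passed an adjusted p of 0.05 in limma's moderated test on log2(TPM + 1), which was fitted to all 6 libraries and adjusted over all 16473 genes tested. Over all genes, 0.0364% were called. Of the 35 tested members, 20 were higher and 15 lower in old PBS, with a median log2 fold change of 0.04 against 0.23 over all genes. At an unadjusted p below 0.05 there were 5 members, 4 higher and 1 lower, or 14.3% of the 35 against 18.1% of all genes (14.6% higher and 3.55% lower). The 4 higher were Adamts6, Adamts5, Adamts2 and Lox. The log2 fold change was 1.48 ± 0.44 (SE) for Adamts6 (adjusted p = 0.224), and 1.51 ± 0.49 for Adamts5 (adjusted p = 0.231). For Adamts2 it was 0.72 ± 0.25 (adjusted p = 0.242), and for Lox 0.95 ± 0.38 (adjusted p = 0.269). Mmp12 was lower by a log2 value of -1.43 ± 0.45 (adjusted p = 0.225). Without young PBS replicate 1 the differences were -0.87 for Mmp12 and 0.46 for Adamts2, and without young PBS replicate 2 that of Lox was 0.53. Median centring gave 0.40 for Adamts2 and 0.63 for Lox, and quantile normalization 0.61 for Lox. A pseudocount of 0.1 gave -2.48 for Mmp12 and 2.25 for Adamts6, and FPKM 0.97 for Adamts6. The Mmp9 and Timp1 differences, -2.74 ± 1.54 and 0.08 ± 0.86, carried the 2 largest errors of the set.

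By family, 11 of 15 ADAMTS genes, 4 of 11 MMP genes, 2 of 4 TIMP genes and 3 of 5 LOX genes were higher in old PBS, against 68.1% of all genes. Differences between the families were not tested. Where the libraries of the 2 groups did not overlap, 6 members were higher (17.1%, against 38.1% of all genes) and 4 lower (11.4%, against 11%). These counts moved with the scaling, which shifted the median of all genes from 0.23 to 0.08 with FPKM, -0.09 with median centring and 0.02 with quantile normalization. Higher TIMP genes went from 2 to 0, 0 and 0, higher LOX genes from 3 to 1, 1 and 2, higher MMP genes from 4 to 3, 1 and 2, and higher ADAMTS genes from 11 to 10, 8 and 10. Non-overlapping members that were lower numbered 8, 12 and 6 under those scalings, or 22.9%, 34.3% and 17.1%, against 16.4%, 25.4% and 19.3% of all genes. Those that were higher numbered 5, 3 and 4, or 14.3%, 8.57% and 11.4%, against 26.8%, 18.6% and 24.2%. The members at an unadjusted p below 0.05 were then 3 higher and 3 lower with FPKM, and 2 higher and 4 lower with either of the other scalings. Shares of all genes at that threshold are not given for these scalings.

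Leaving out young PBS replicate 1 changed the call of Mmp9, Timp2 and Mmp2, and left 1 library in that group. Their differences between old PBS and young PBS were then -5.25, -1.25 and -1.29. In that fit 7.12% of 16189 genes were called, and the remaining young PBS library was assumed to vary like the other groups. Over all alternatives the adjusted p ranged from 0.0369 to 0.884 for Mmp9, from 0.0408 to 0.912 for Timp2 and from 0.0492 to 0.937 for Mmp2. With all libraries the 3 differences were -2.74 ± 1.54, -0.59 ± 0.43 and -0.52 ± 0.50. Their values in young PBS replicate 2, at 121, 381 and 311 TPM, were the highest of the 6 libraries for each gene. Luteal cell markers, 5 genes, differed between the same 2 libraries, with 3428 TPM in sum in young PBS replicate 1 and 27642 TPM in replicate 2. They stood at 15576 and 10202 TPM in old PBS and at 18644 and 19639 TPM in old MIT-001, and none was at 0. Their part in the result was not tested.

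The young PBS libraries lay further apart than the other pairs, among the members and among all genes. The median absolute log2 gap between replicates was 0.84 for the tested members in young PBS, against 0.52 for all genes. In old PBS it was 0.33 against 0.23, and in old MIT-001 0.33 against 0.24. A gap above 1 was found for 14 of 35 members in young PBS (40%, against 21.5% of all genes), for 2 in old PBS (5.71%, against 4.58%) and for 5 in old MIT-001 (14.3%, against 8.45%). Other members were nearly level in the young PBS pair, such as Mmp11, Mmp17 and Adamts3. Of the 14, 11 were higher in replicate 2 and 3 in replicate 1. The 11 included both gelatinases, Timp1, Timp2, Loxl1, Loxl2 and Loxl3, and the 3 were Adamts1, Adamts19 and Mmp12. For 6 members, Adamts14, Loxl2, Loxl3, Mmp15, Mmp2 and Timp1, young PBS replicate 2 was the highest of the 6 libraries and replicate 1 the lowest (17.1%, against 9.57% of all genes). Macrophage markers, 12 genes, were at 1275 and 1239 TPM in sum in that pair, and neutrophil markers, 8 genes with Elane at 0 in every library, at 16.3 and 4.42 TPM. The level macrophage sum held markers that moved in opposite directions. Csf1r was at 24 and 72.1 TPM and Cd68 at 54.8 and 84.8, while C1qb was at 242 and 179 and Lyz2 at 429 and 370.

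**Figure D2:**
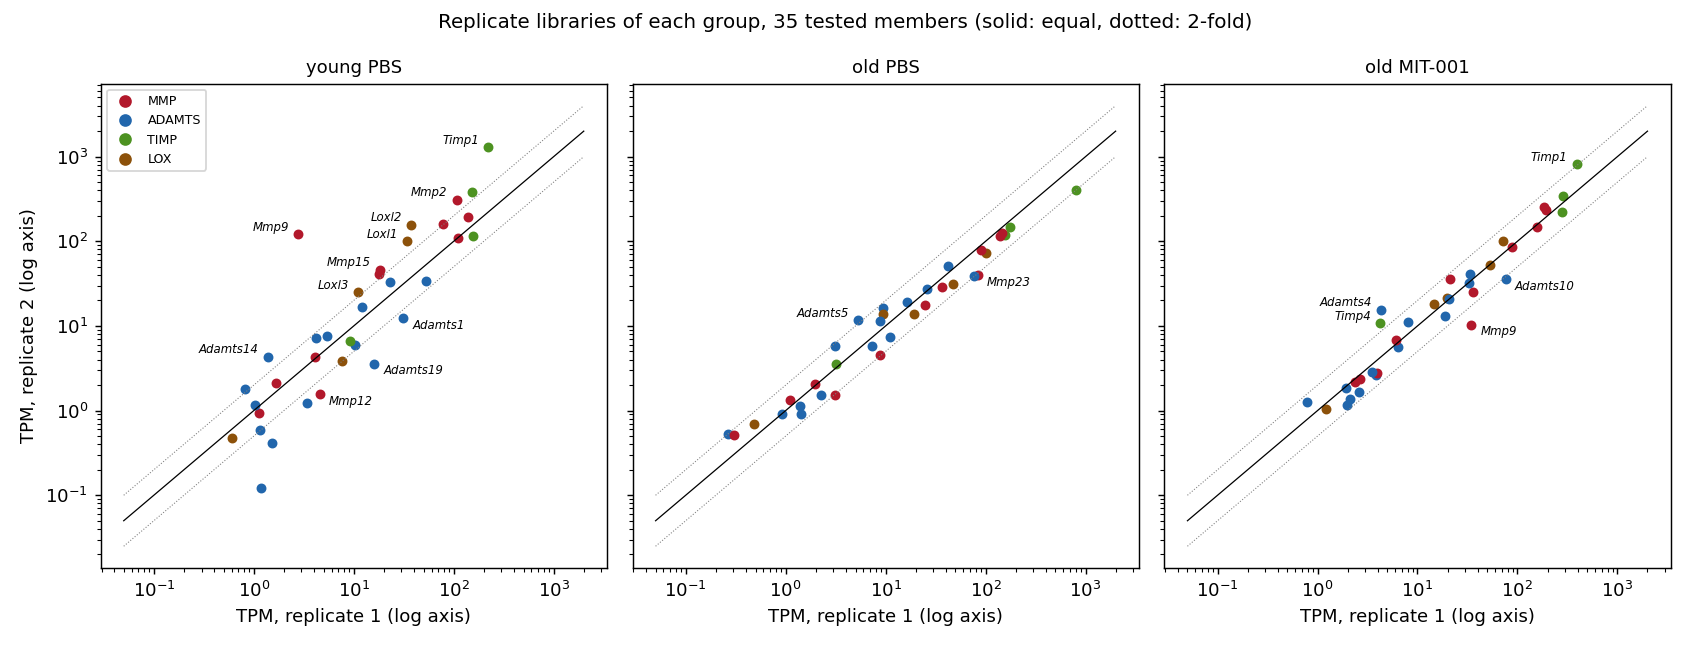
Replicate 2 against replicate 1 in TPM on logarithmic axes for the 35 tested members in each group, coloured by family, with a solid line at equal values and dotted lines at a 2-fold difference; names mark members with a log2 gap above 1 where there was room. In young PBS, Mmp9, Timp1, Mmp2 and Loxl2 lie well above the line and Adamts19 below it, while the old PBS points stay close to it.

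Between old MIT-001 and old PBS, most of the set was higher in old MIT-001, and again no member passed an adjusted p of 0.05 in limma, against 0.0182% of all genes called. Of the 35 tested members 25 were higher (71.4%, against 53.5% of all genes) and 10 lower, with a median log2 fold change of 0.40 against 0.03. At an unadjusted p below 0.05 there were 5 members, all higher, or 14.3% against 11.8% of all genes (7.45% higher and 4.36% lower). Mmp11 was higher by a log2 value of 0.83 ± 0.19 (limma adjusted p = 0.19), 1.78-fold. Mmp12 was higher by 1.62 ± 0.45 (adjusted p = 0.259) and Timp3 by 0.87 ± 0.26 (adjusted p = 0.287). Adamts16 was higher by 1.15 ± 0.43 (adjusted p = 0.366) and Mmp14 by 0.63 ± 0.25 (adjusted p = 0.401). With FPKM the differences were 1.06 for Mmp12 and 0.71 for Adamts16, and with a pseudocount of 0.1 they were 2.78 and 2.18. The fitted difference was largest for Mmp9, 2.65 ± 1.54 (adjusted p = 0.609), where the old MIT-001 libraries themselves differed more than 3-fold. Its error also took in the young PBS pair, at 2.76 and 121 TPM. With only the 4 libraries compared, the limma adjusted p was 0.096 for Mmp9, and it was smaller for the other named members too. It was 0.0507 for Mmp11, 0.0567 for Timp2, 0.0602 for Mmp12, 0.096 for Timp3, 0.109 for Mmp14 and 0.123 for Adamts16. No member was called in that fit, and the share of all genes called in it is not given.

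The libraries of old MIT-001 and old PBS did not overlap for 26 of the 35 members. In 22 of these old MIT-001 was higher, 62.9% of the members against 27.2% of all genes, and in 4 it was lower, 11.4% against 24.2%. The 22 were made up of 9 of 11 MMP genes, 3 of 4 TIMP genes, 4 of 5 LOX genes and 6 of 15 ADAMTS genes. Timp1 and Loxl2 were the inhibitor and the lysyl oxidase whose libraries overlapped, with log2 differences of -0.01 ± 0.86 and -0.01 ± 0.64. All 4 that were lower without overlap were ADAMTS genes: Adamts5 at -1.10 ± 0.49, Adamts6 at -0.95 ± 0.44, Adamts7 at -0.52 ± 0.32 and Adamts2 at -0.49 ± 0.25 (limma adjusted p = 0.465, 0.481, 0.645 and 0.543). They were 26.7% of the 15 tested ADAMTS genes, close to the 24.2% of all genes that were lower without overlap. Without old PBS replicate 2 the differences of Adamts5 and Adamts6 were both -0.59. Adamts5, Adamts6 and Adamts2 are also 3 of the 4 that were higher in old PBS than in young PBS at an unadjusted p below 0.05. Both comparisons use the same old PBS libraries, so the 2 sets of values are not independent.

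The number of members higher without overlap was 22 with FPKM (27.2% of all genes), 18 with median centring (51.4%, against 21.6%) and 13 with quantile normalization (37.1%, against 21.7%). The number lower was 4, 4 and 5, or 11.4%, 11.4% and 14.3%, against 24.2%, 31.9% and 29.5% of all genes. By family, the higher MMP genes were 9, 7 and 7 of 11, TIMP genes 3, 3 and 2 of 4, LOX genes 4, 2 and 1 of 5, and ADAMTS genes 6, 6 and 3 of 15. With quantile normalization the LOX and ADAMTS shares were both 20%, against 21.7% of all genes. Among genes with a mean of at least 5 TPM, 14 of 24 members were higher (58.3%, against 23.4% of such genes). Members at an unadjusted p below 0.05 were 4 higher and 2 lower with median centring, and 5 higher and 2 lower with quantile normalization, without shares of all genes to set beside them. The median of the members stayed above that of all genes under each scaling, at 0.29 against 0.03 with FPKM, 0.31 against -0.06 with median centring and 0.20 against -0.04 with quantile normalization.

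**Figure D3:**
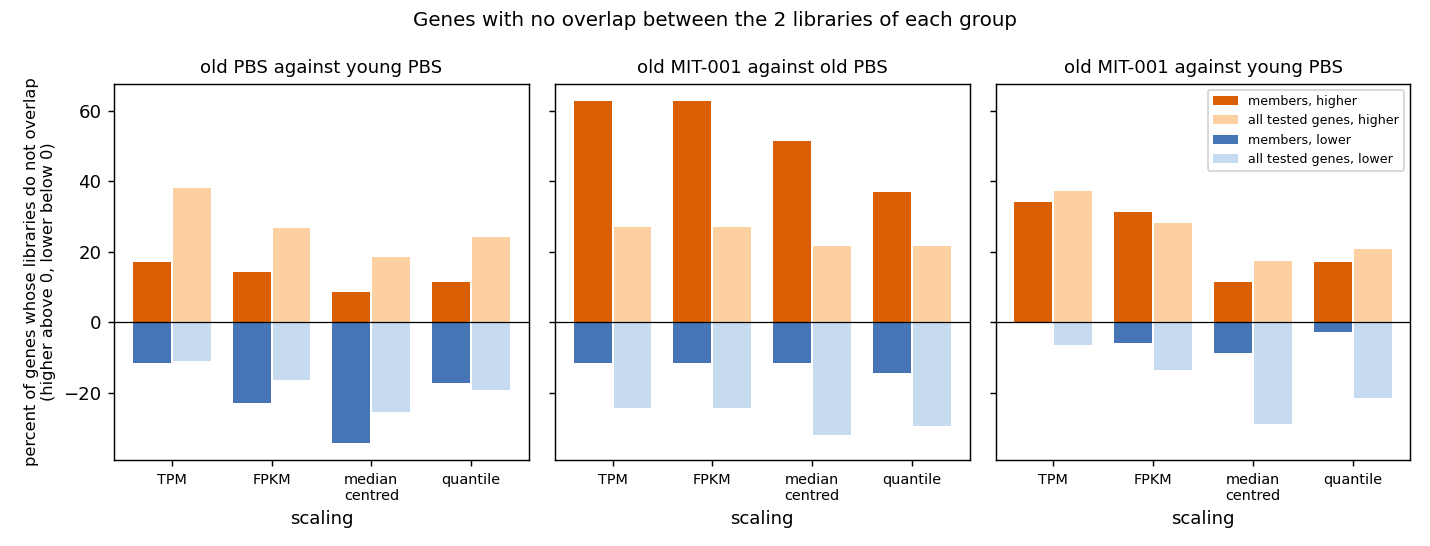
Percent of the 35 tested members (dark bars) and of all 16473 tested genes (light bars) whose libraries do not overlap between the groups of each comparison, higher above 0 and lower below 0, under 4 scalings. In old MIT-001 against old PBS the members reach 62.9% higher with TPM and 37.1% with quantile normalization, against 27.2% and 21.7% of all genes.

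Markers of several cell types differed between the same libraries. The summed TPM of 8 stromal fibroblast markers was 1613 and 1581 in old PBS and 2441 and 2200 in old MIT-001, with 1363 and 1861 in young PBS. For 9 surface epithelium markers it was 208 and 208 in old PBS, 784 and 828 in old MIT-001, and 315 and 401 in young PBS. For 8 oviduct and ciliated cell markers it was 46.4 and 44.7 in old PBS, 760 and 458 in old MIT-001, and 114 and 205 in young PBS. Ovgp1 alone gave 567 TPM of the sum in old MIT-001 replicate 1. Of the cilium markers in that library, Foxj1 (0.867 TPM) and Dnah5 (0.0849 TPM) lay below both old PBS libraries. Rsph1 (8.15 TPM) lay between them and Ccdc39 (1.87 TPM) above them. In old MIT-001 replicate 2 each of these cilium markers lay above both old PBS libraries. Macrophage markers, 12 genes, were at 229 and 310 TPM in old PBS, 790 and 614 in old MIT-001, and 1275 and 1239 in young PBS. The granulosa cell markers were at 7302 and 9229 TPM in old PBS, 2590 and 3797 in old MIT-001, and 3305 and 3040 in young PBS. None of these markers was at 0 in all libraries. Mmp12, the macrophage elastase, was at 0.304 and 0.522 TPM in old PBS, 3.96 and 2.8 in old MIT-001, and 4.6 and 1.57 in young PBS. Smooth muscle and pericyte markers, 8 genes, were at 1717 and 857 TPM in young PBS, 1008 and 660 in old PBS, and 2217 and 938 in old MIT-001, and 8 endothelial markers at 425 and 368, 469 and 415, and 362 and 279 TPM. Theca and steroidogenic cell markers, 6 genes, were at 19717 to 38765 TPM in every library, and 6 adipocyte markers at 25.2 to 245 TPM. Mast cell markers, 5 genes, were at 120 and 19 TPM in young PBS, 15.4 and 17.3 in old PBS, and 62.9 and 7.89 in old MIT-001, with Cpa3, Mcpt4, Tpsb2 and Cma1 listed at 0 in both old PBS libraries. The part of these cell types in the protease differences was not tested.

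Between old MIT-001 and young PBS, no member and no other gene (0% of 16473) passed an adjusted p of 0.05 in limma. At an unadjusted p below 0.05 there were 4 members, all higher in old MIT-001, or 11.4% against 17.9% of all genes (17.1% higher and 0.813% lower). Lox was higher by a log2 value of 1.43 ± 0.38 (limma adjusted p = 0.161), 2.69-fold. Timp3 was higher by 0.89 ± 0.26 (adjusted p = 0.171), Mmp16 by 0.79 ± 0.29 (adjusted p = 0.239) and Mmp11 by 0.46 ± 0.19 (adjusted p = 0.269). Under FPKM, median centring and quantile normalization the 4 members became 2, 1 and 2, without shares of all genes to set beside them. Median centring took Mmp11 to 0.05, Mmp16 to 0.37 and Timp3 to 0.48, and quantile normalization took Mmp16 to 0.37. With TPM as deposited, Timp3 and Mmp11 were at an unadjusted p below 0.05 against both PBS groups, and those 2 comparisons share the old MIT-001 libraries. Of the 35 members 29 were higher (82.9%, against 69.3% of all genes), with a median of 0.29 against 0.24. Those higher without overlap numbered 12 (34.3%, against 37.3%). No member was lower without overlap, against 6.56% of all genes. With FPKM, median centring and quantile normalization, 11, 4 and 6 members were higher without overlap (31.4%, 11.4% and 17.1%, against 28.3%, 17.4% and 20.9%). Under those scalings 2, 3 and 1 were lower (5.71%, 8.57% and 2.86%, against 13.4%, 28.7% and 21.6%). The direction of the set depended on the scaling here, since 25, 12 and 17 members were higher with FPKM, median centring and quantile normalization, as the median of all genes went from 0.24 to 0.09, -0.17 and -0.06.

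**Figure D4:**
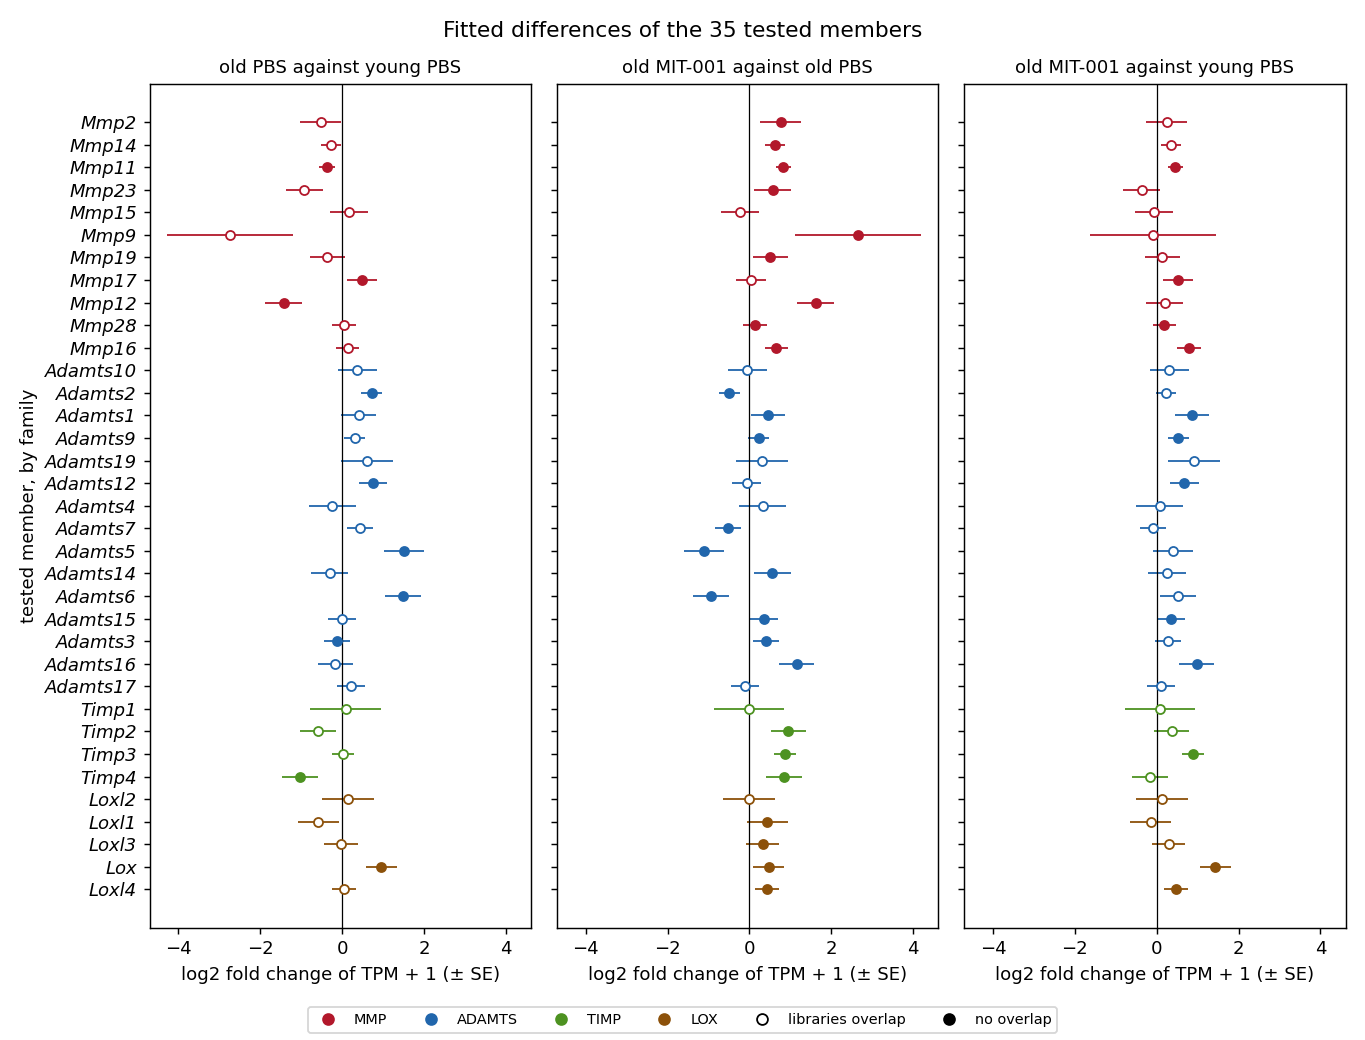
Fitted log2 fold changes of TPM + 1 with standard errors for the 35 tested members in the 3 comparisons, coloured by family; filled points mark members whose libraries do not overlap between the groups. In old MIT-001 against old PBS most MMP, TIMP and LOX points lie to the right of 0 and Adamts2, Adamts5, Adamts6 and Adamts7 to the left, and the error of Mmp9 is the widest.

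Summed over each family, MMP transcripts were at 487 and 998 TPM in young PBS, 538 and 420 in old PBS, and 731 and 813 in old MIT-001. The old MIT-001 sums lay above both old PBS sums and within the young PBS range. TIMP sums were 538 and 1787 TPM in young PBS, 1133 and 667 in old PBS, and 958 and 1385 in old MIT-001, so that all 3 groups overlapped. LOX sums of 90.8 and 287, 177 and 132, and 160 and 194 TPM overlapped in the same order of groups, and ADAMTS sums were 167 and 130, 212 and 200, and 219 and 190 TPM. The ratio of TIMP to MMP transcripts, a crude measure of inhibitor against protease RNA, was 1.1 and 1.79 in young PBS, 2.11 and 1.59 in old PBS, and 1.31 and 1.7 in old MIT-001, again with overlap. With Timp1 left out the ratio was 0.651 and 0.504 in young PBS, 0.623 and 0.638 in old PBS, and 0.777 and 0.707 in old MIT-001, which then held the 2 highest values. Timp1 is 40.7% to 71.8% of the TIMP sum, and the rest is mostly Timp2 and Timp3. The second ratio therefore largely repeats their values given above. With 2 libraries against 2, an exact permutation test cannot reach a p of 0.05, so none is given for these sums.

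**Figure D5:**
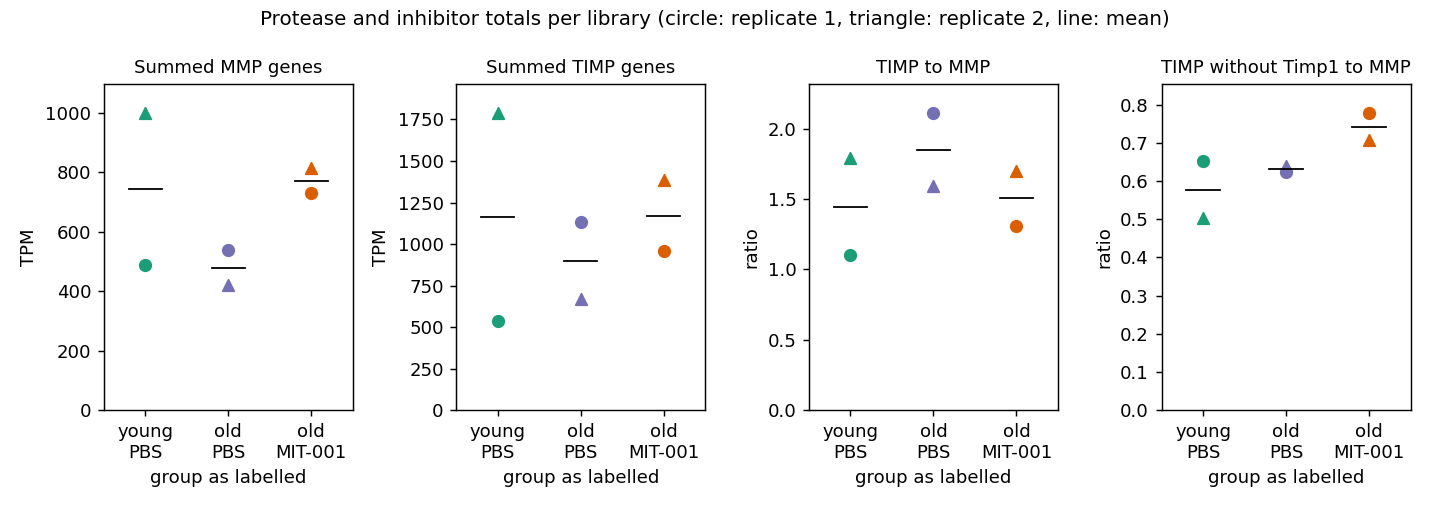
Summed TPM of the 23 MMP genes and the 4 TIMP genes and the ratio of the sums, with and without Timp1, in each library (circle for replicate 1, triangle for replicate 2, line for the mean of 2). MMP sums of old MIT-001, 731 and 813 TPM, lie above those of old PBS, 538 and 420 TPM, and the ratio separates old MIT-001 from the other groups only when Timp1 is left out.

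Within the chromosome 9 cluster the summed level was 6.5 and 5.55 TPM in young PBS, 1.02 and 1.7 in old PBS, and 5.54 and 7.55 in old MIT-001. Old PBS held the 2 lowest sums, and different genes made them up. In young PBS replicate 1 the largest part was Mmp12, in replicate 2 it was Mmp7, and in old MIT-001 replicate 2 it was Mmp8. Mmp13, collagenase 3, was the largest in old PBS replicate 2 at 1.02 TPM. No test was made of these sums.

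The proteins around these enzymes were followed through 7 lists of 78 genes, 67 of them tested. No gene of any list was called in any comparison by limma, and at an unadjusted p below 0.05 there were 10 higher and 6 lower in old PBS against young PBS, 8 higher and 4 lower in old MIT-001 against old PBS, and 6 higher and 1 lower in old MIT-001 against young PBS. As shares of the 67 these were 14.9% and 8.96%, 11.9% and 5.97%, and 8.96% and 1.49%. Over all genes the shares were 14.6% and 3.55%, 7.45% and 4.36%, and 17.1% and 0.813%. In the plasminogen system, which activates several pro-MMPs, Plg itself was listed at 0 in all libraries. Plat, tissue plasminogen activator, was at 66.8 and 47 TPM in young PBS, 47.7 and 35.9 in old PBS, and 91.1 and 118 in old MIT-001. Against old PBS this was a log2 difference of 1.30 ± 0.28 (adjusted p = 0.171). Its inhibitor Serpine2 was instead highest in old PBS, at 292 and 161 TPM in young PBS, 623 and 723 in old PBS, and 196 and 302 in old MIT-001. The difference between old MIT-001 and old PBS was -1.46 ± 0.36 (limma adjusted p = 0.222). Reck, a membrane-anchored inhibitor of several MMPs, was at 8.16 and 12.1 TPM in young PBS, 13.6 and 15.1 in old PBS, and 18.1 and 23.2 in old MIT-001, without overlap between any of the groups.

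Of the ADAMTS substrates, Vcan (versican) was at 10.3 and 9.43 TPM in young PBS, 21.4 and 42.2 in old PBS, and 11.7 and 25.5 in old MIT-001. It was higher in old PBS than in young PBS by 1.52 ± 0.46 (adjusted p = 0.225). Among elastic fibre genes, Fbln1, a fibulin that binds ADAMTS1 as a cofactor, was at 116 and 119 TPM in young PBS, 197 and 192 in old PBS, and 80.6 and 71.6 in old MIT-001. Its difference between old MIT-001 and old PBS, -1.35 ± 0.18, had the smallest adjusted p of any gene of the 7 lists in that comparison (limma adjusted p = 0.0895). Ltbp2, a fibrillin-binding protein, ran the other way, at 20.3 and 28.7 TPM in young PBS, 7.81 and 6.06 in old PBS, and 25.4 and 20.3 in old MIT-001 (1.59 ± 0.29, adjusted p = 0.126). The elastin- and collagen-cutting cathepsins of macrophages and osteoclasts were also lowest in old PBS. Ctss was at 125 and 92.7 TPM in young PBS, 14.5 and 24.2 in old PBS, and 76.2 and 54.2 in old MIT-001, and Ctsk at 24.9 and 30.1, 2.77 and 12.5, and 32.3 and 38.1 TPM in the same order of groups. The shedding protease Adam10 was lowest in young PBS, at 33.7 and 36.3 TPM, with 58.8 and 92.8 in old PBS and 70.4 and 80.4 in old MIT-001 (1.06 ± 0.26 for old PBS against young PBS, limma adjusted p = 0.212).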

How the data were processed

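The submitters' processing notes name Trimmomatic, HISAT2, StringTie and the mm10 genome. The annotation, strand setting and tool versions were not given in the sources used here. The deposited values were TPM, FPKM and coverage per gene, per the file headers; TPM was analysed, the deposited FPKM served as an alternative, and the deposited coverage signal only to estimate depth. Gene IDs were matched to symbols with a RefSeq table (98 rows per library did not match). No read counts were used. The error of each difference came from a spread per gene that was shared by all 6 libraries and moderated over genes. The wide young PBS pair therefore also entered the error of old MIT-001 against old PBS.

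The test took the 16473 genes that reached 1 TPM in 2 or more libraries, as log2(TPM + 1), a scale that understates changes of low genes. All 6 libraries entered a linear model of group means in limma 3.58.1 (R 4.3.3; 3 residual and 3.12 prior degrees of freedom, intensity trend), two-sided, with Benjamini-Hochberg adjustment over all genes and calls at an adjusted p below 0.05. Errors are standard errors of log2 fold changes. The script was tested on simulated data. The members, lists and tests were chosen with earlier results of these data known. Named members were those at an unadjusted p below 0.05, the 6 largest non-overlapping differences of a comparison, the 3 most abundant MMP and ADAMTS genes, and all TIMP and LOX genes. Up to 3 genes per pathway list were chosen by the smallest p. Mmp3, Mmp7, Mmp8, Mmp13, Mmp17, Mmp23, Mmp24, Adamts3, Adamts7 and Adamts19 were named after their values were seen.

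Cell types were followed through 14 marker lists, summed in TPM. The alternatives tried were no filter, a filter at 5 TPM, a smaller pseudocount (0.1), FPKM, median centring, quantile normalization, no intensity trend, the 4 libraries compared alone, a replicate block, and each library left out.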

Additional observations from a re-analysis of the deposited data

How the results depend on the processing

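No member was called by limma in any comparison under any alternative except when young PBS replicate 1 was left out. That fit left 1 library in its group and changed the call of Mmp2, Mmp9 and Timp2 in old PBS against young PBS. Where both libraries of each compared group were kept, the numbers at an unadjusted p below 0.05 also moved. They ranged from 3 to 6 in old PBS against young PBS (5 as reported). In old MIT-001 they ranged from 3 to 13 against old PBS (5) and from 1 to 6 against young PBS (4). With a library of a compared group left out they moved further. The shares of all genes are not given for these settings, so the counts are not read as results about the members. Overlap counts under other scalings and the filter on a mean of 5 TPM were added after seeing the data. The labels state no pairing by replicate number. Differences between replicates correlated across genes at 0.239 for young PBS and old MIT-001, 0.00656 for young PBS and old PBS, and 0.175 for old MIT-001 and old PBS. These values do not settle whether libraries with the same number shared a batch. With the replicate block, 0 members were called in each comparison, and 5, 4 and 3 had an unadjusted p below 0.05. With 2 libraries per group and no read counts used, the precision of each value rests on the spread between libraries.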
